A study of Mus musculus with 6 samples.

Results

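The Hox cluster genes are the homeobox genes of the Hoxa, Hoxb, Hoxc and Hoxd clusters. They were taken here as every gene whose symbol is Hox, a cluster letter and a number, and which is named alone by at least 1 probe set (the group of short probes on the array that reads 1 transcript). Of 39 such genes in the RefSeq gene table, 33 were measured, out of 18193 genes measured in all, with 9 in Hoxa, 9 in Hoxb, 7 in Hoxc and 8 in Hoxd. Where a gene had several probe sets, the one whose mean over the 6 lungs was highest stands for it. The other 6 had no probe set of their own and are not among the members. The lungs came from mouse embryos at E16.5, a late fetal stage, on a mixed strain background, 3 of genotype Hopx -/- (Hopx-null) and 3 of genotype Hopx +/+ (wild-type), with no other allele or agent named. Total RNA of the microdissected organ was read on 1 single-channel Affymetrix array per sample. The sources used here give neither the construct of the Hopx allele nor whether a sample holds 1 embryo or several.

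Hox genes encode transcription factors that bind DNA through a homeodomain and give cells their position along the head-to-tail axis of the embryo. Genes of like number in different clusters, called paralogues, descend from 1 ancestral gene, and low numbers are generally used further forward than high numbers. In the developing lung, Hox genes act mainly in the mesenchyme, and mice without Hoxa5 have malformed airways and often die at birth. Hopx, the gene that the genotypes name, also encodes a homeodomain protein, but a small one that does not bind DNA by itself and that marks type I alveolar cells late in lung development.

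Hopx checked the genotype labels. At its brighter probe set the log2 values were 10.64, 10.35 and 10.47 in Hopx-null lungs 1 to 3 and 12.50, 12.44 and 12.26 in wild-type lungs 1 to 3. At the other probe set they were 4.59, 4.59 and 4.96 against 10.96, 10.59 and 10.41. The groups lay apart at both, the way the labels say, by -1.91 at the brighter probe set and -5.94 at the other. At the brighter one signal stayed strong in Hopx-null lungs, with a mean of 10.49, above the upper quartile of the probe sets (9.02). The mean over 10 lung epithelial markers was 11.13 to 11.28 across the lungs and that over 10 lung mesenchymal markers 10.61 to 10.83, with no marker of either list below the lower quartile of the probe sets. Y-linked signal was present in wild-type lungs 2 and 3 and in no other lung. Xist, a marker of female cells, read 6.43 and 5.84 in those 2 lungs and 12.22 to 12.68 in the others. Sex, as read from these signals, is thus partly confounded with genotype in every comparison here. Hopx-null lung 3 had the largest difference between the 3' and 5' control probe sets (1.51 for actin, against 1.15 to 1.25 elsewhere).

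In these lungs the Hox genes with strong signal were genes of low number in Hoxa and Hoxb, joined by a pair from Hoxd. Levels are placed here by the quartiles of the mean over all 45037 probe sets (4.29, 6.69 and 9.02 on the log2 scale). Probe sets bind with different strength, so a place among the quartiles does not rank the amounts of RNA of different genes. Of the 33 genes, 5 lay above the upper quartile, 4 between the median and the upper quartile, 10 between the lower quartile and the median, and 14 below the lower quartile, where signal is close to background. Of all 18193 genes 62.9% lay above the median, against 9 of the 33 Hox genes, 27.3%.

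**Figure D1:**
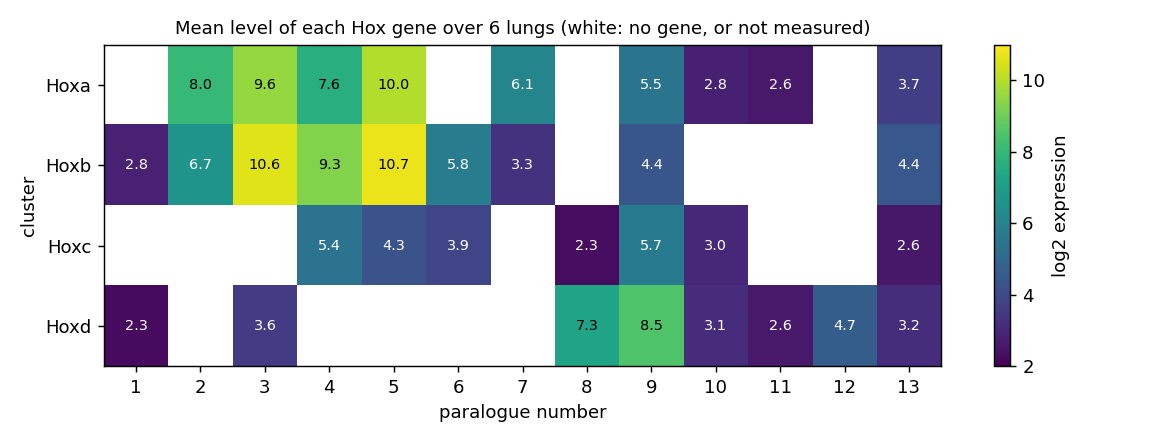
Mean log2 expression over the 6 lungs of each measured Hox gene, by cluster (rows) and paralogue number (columns), 1 probe set per gene. The 9 genes above the median of 6.69 are Hoxa2 to Hoxa5, Hoxb3 to Hoxb5, Hoxd8 and Hoxd9, and no Hoxc cell reaches it.

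By paralogue number, 7 of the 13 measured genes with numbers 1 to 5 lay above the median, 1 of the 6 with numbers 6 to 8 and 1 of the 14 with numbers 9 to 13. The 5 genes above the upper quartile were Hoxa3, Hoxa5, Hoxb3, Hoxb4 and Hoxb5, all with numbers 3 to 5. By cluster, 4 of 9 genes lay above the median in Hoxa, 3 of 9 in Hoxb, 0 of 7 in Hoxc and 2 of 8 in Hoxd. Exceptions at the front were Hoxb1, a hindbrain gene, Hoxd1 and Hoxd3, all below the lower quartile. Hoxb2, Hoxc4 and Hoxc5 lay between the lower quartile and the median. Hoxd8 and Hoxd9 were exceptions further back, while their neighbours Hoxd10, Hoxd11 and Hoxd13, which pattern the limb, were below the lower quartile and Hoxd12, at 4.67, lay between it and the median.

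Promoter sequences of 5 members are shown because they stand on either side of this division. Hoxa5 and Hoxb4 lay above the upper quartile, Hoxd8 and Hoxd9 were the bright pair of their cluster, and Hoxd13, from the dim end of the same cluster, lay below the lower quartile. Each is the 250 bases before the gene's start in RefSeq, build GRCm38.p6, read 5′ to 3′ along the gene. Capitals mark matches on either strand to CCAAT or TATAAA. No match to TGATNNAT, the pairing of a Pbx and a Hox site, is in these 5 windows.
Hoxa5, chr6:52204588-52204837, minus strand: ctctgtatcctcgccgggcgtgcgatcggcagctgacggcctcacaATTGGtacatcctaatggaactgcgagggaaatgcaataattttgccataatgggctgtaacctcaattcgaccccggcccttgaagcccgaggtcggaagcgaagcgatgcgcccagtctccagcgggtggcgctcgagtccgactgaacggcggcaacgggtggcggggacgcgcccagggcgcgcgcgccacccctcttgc
Hoxb4, chr11:96318017-96318266, plus strand: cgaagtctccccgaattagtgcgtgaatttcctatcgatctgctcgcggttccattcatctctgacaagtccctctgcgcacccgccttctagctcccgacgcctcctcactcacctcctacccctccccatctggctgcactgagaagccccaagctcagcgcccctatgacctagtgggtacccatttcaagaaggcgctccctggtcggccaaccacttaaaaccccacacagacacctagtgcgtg
Hoxd8, chr2:74704365-74704614, plus strand: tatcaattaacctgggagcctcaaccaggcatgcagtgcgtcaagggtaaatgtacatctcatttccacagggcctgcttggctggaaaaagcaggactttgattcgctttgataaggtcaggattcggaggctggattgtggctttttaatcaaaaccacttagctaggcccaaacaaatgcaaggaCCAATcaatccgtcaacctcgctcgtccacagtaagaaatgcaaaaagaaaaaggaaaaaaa
Hoxd9, chr2:74697513-74697762, plus strand: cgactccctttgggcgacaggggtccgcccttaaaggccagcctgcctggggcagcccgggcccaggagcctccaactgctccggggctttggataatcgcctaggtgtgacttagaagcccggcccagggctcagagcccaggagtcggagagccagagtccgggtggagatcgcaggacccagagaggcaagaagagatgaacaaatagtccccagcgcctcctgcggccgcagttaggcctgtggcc
Hoxd13, chr2:74667975-74668224, plus strand: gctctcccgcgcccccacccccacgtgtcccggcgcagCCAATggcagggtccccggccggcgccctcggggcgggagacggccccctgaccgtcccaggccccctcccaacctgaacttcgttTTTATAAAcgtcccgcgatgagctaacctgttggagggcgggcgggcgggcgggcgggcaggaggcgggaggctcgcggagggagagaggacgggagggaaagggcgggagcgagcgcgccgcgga

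The Hoxa5 window held 28 CG dinucleotides, Hoxb4 14, Hoxd8 6, Hoxd9 13 and Hoxd13 31. The promoter table held 21 windows of 19 members. Over these the median was 13 CG dinucleotides, against 6 over all 32851 windows in the table. It was 13.5 in the 6 windows of members above the median level, 12 in the 15 windows of members below it, and 20 in the 11 of those that belong to members below the lower quartile. CCAAT was found in 11 of the 21 windows (33.8% of all windows), TATAAA in 2 (12.4% of all windows) and TGATNNAT in 3 (7.68% of all windows). In the Hoxd13 window the TATAAA matches on the 2 strands overlap. These counts describe letters and carry no test.

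Between genotypes, no Hox gene passed the test. The limma test, adjusted by Benjamini-Hochberg over all probe sets, called 0 of 33 members at an adjusted p of 0.05, where it called 0.0055% of all genes, and the smallest adjusted p among the members was 0.878. At an unadjusted p of 0.05 limma marked 2 members, both higher in Hopx-null lungs (2.9% of all genes were marked as higher and 1.64% as lower). The groups did not overlap at 2 members higher in Hopx-null lungs and 1 lower, where the shares over all genes were 6.21% and 4.31%. Differences ran from -0.25 to 0.34 on the log2 scale, with a median of 0.02 against 0.01 over all genes, and no member reached 0.5 in size, which 3.09% of all genes did. Their median size was 0.06, against 0.10 over all genes. In whole lung, fewer cells of a type and less RNA per cell cannot be told apart.

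**Figure D2:**
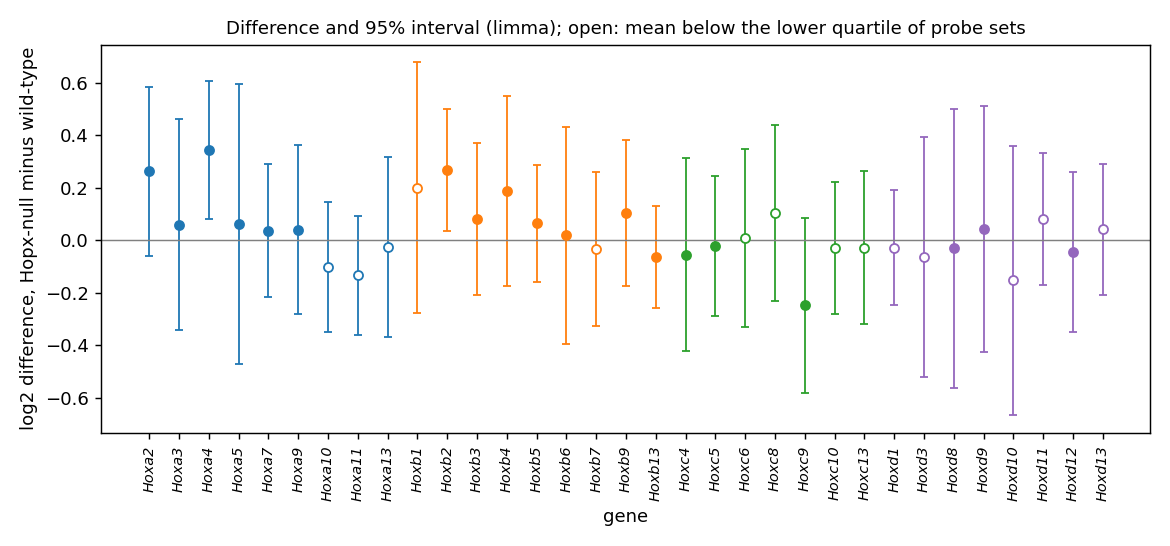
Log2 difference between the means of 3 Hopx-null and 3 wild-type lungs for each of the 33 Hox genes, with the 95% interval from limma, coloured by cluster; open circles mark genes below the lower quartile of the probe sets. The intervals of Hoxa4 and Hoxb2 alone leave out 0, before adjustment, and the points lie between -0.25 and 0.34.

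The largest difference belonged to Hoxa4, which helps pattern the neck vertebrae. Its log2 values were 7.80, 7.76 and 7.86 in Hopx-null lungs 1 to 3 and 7.55, 7.57 and 7.26 in wild-type lungs 1 to 3. All 3 Hopx-null lungs were above all 3 wild-type lungs, with wild-type lung 3 lowest. The difference was 0.34 (SE 0.11, 95% interval 0.08 to 0.60), which did not pass (limma, Benjamini-Hochberg adjusted p = 0.878, range over the alternatives 0.620 to 1.00). An exact two-sided permutation test gave p = 0.1, the smallest that 3 against 3 allows. A dimmer probe set of Hoxa4 differed by 0.16 (SE 0.14), with its groups overlapping.

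Hoxb2, which acts in the hindbrain, was the other. It read 6.86, 6.69 and 6.84 in Hopx-null lungs 1 to 3 and 6.56, 6.62 and 6.42 in wild-type lungs 1 to 3. The groups lay apart by a narrow margin, between Hopx-null lung 2 and wild-type lung 2. The difference was 0.27 (SE 0.10, 95% interval 0.04 to 0.50), which did not pass (limma, Benjamini-Hochberg adjusted p = 0.878, exact two-sided permutation p = 0.1). Hoxa2, its paralogue, which sets the identity of the second pharyngeal arch, read 8.21, 8.10 and 8.13 in Hopx-null lungs and 7.79, 8.16 and 7.70 in wild-type lungs. Wild-type lung 2 fell among the Hopx-null values, so the groups overlapped, and the difference of 0.26 (SE 0.13, 95% interval -0.06 to 0.58) did not pass (limma, Benjamini-Hochberg adjusted p = 0.878). It was 0.40 without wild-type lung 2 and 0.17 without wild-type lung 3.

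Hoxa5 and Hoxb5 are the number 5 genes with a known part in lung branching and mesenchyme. Hoxa5 read 10.14, 9.75 and 10.06 in Hopx-null lungs 1 to 3 and 9.83, 10.39 and 9.55 in wild-type lungs 1 to 3. Wild-type lungs held both the highest and the lowest value, with an SD of 0.43 against 0.20. The difference was 0.06 (SE 0.22, 95% interval -0.47 to 0.59), and it was -0.12 without wild-type lung 3, -0.02 without Hopx-null lung 1 and 0.29 without wild-type lung 2. Hoxb5 was far steadier, at 10.78, 10.75 and 10.77 in Hopx-null lungs and 10.81, 10.56 and 10.73 in wild-type lungs. Its difference was 0.06 (SE 0.09, 95% interval -0.16 to 0.29), and -0.0057 without wild-type lung 2. The interval for Hoxb5 leaves out a change of more than 0.29 in either direction, while that for Hoxa5 does not. Hoxc5, the remaining number 5 gene, lay between 4.19 and 4.51 in all 6 lungs, near the lower quartile.

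Hoxa3, Hoxb3 and Hoxb4 were bright, and their groups overlapped. Hoxa3, needed for the thymus and parathyroid, read 9.87, 9.53 and 9.42 in Hopx-null lungs and 9.54, 9.80 and 9.31 in wild-type lungs. Its 4 probe sets did not move together, with differences of 0.06 and 0.02 at the brightest pair, 0.23 at a dimmer one whose groups did not overlap, and -0.12 at the dimmest. Hoxb3 read 10.67, 10.59 and 10.51 against 10.56, 10.68 and 10.29. Hoxb4, known for expanding blood stem cells, read 9.46, 9.25 and 9.45 against 9.33, 9.38 and 8.89. Its difference of 0.19 (SE 0.15) was 0.03 without wild-type lung 3, the lowest of the 6 lungs in each of Hoxa2 to Hoxa5 and Hoxb2 to Hoxb4.

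**Figure D3:**
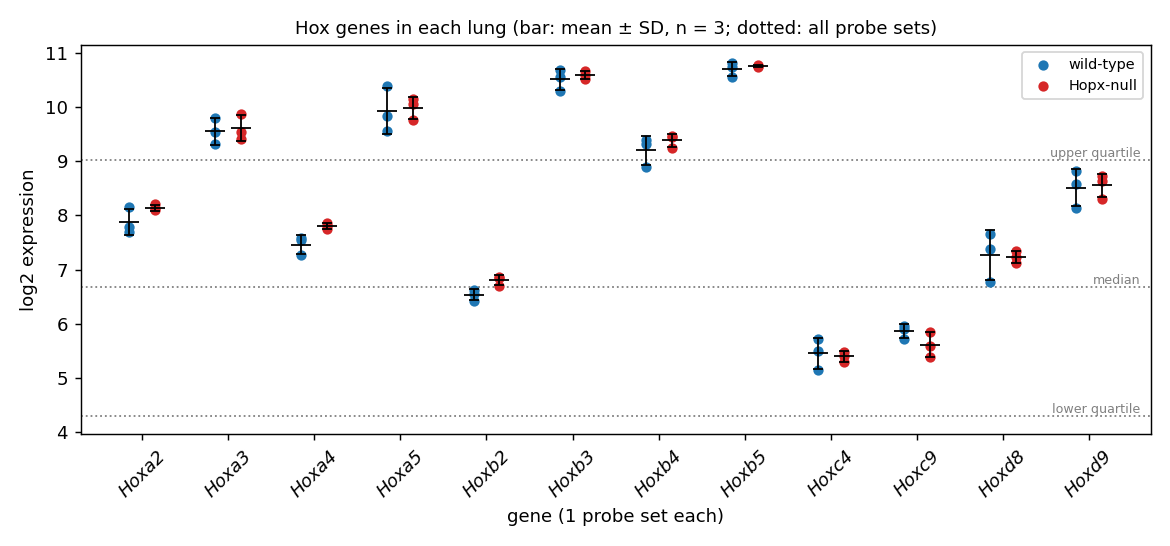
Log2 expression of 12 Hox genes in each lung, with wild-type in blue and Hopx-null in red; bars give the mean ± SD of 3 lungs, and dotted lines the quartiles of the mean over all probe sets. Only Hoxa4 and Hoxb2 show groups that lie apart, and the wild-type lungs spread most at Hoxa5 and Hoxd8.

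Members of middle number were weaker. Hoxa7 was between 5.90 and 6.21 in the 6 lungs. Hoxb6 read 6.15, 5.46 and 5.72 in Hopx-null lungs and 5.71, 5.77 and 5.78 in wild-type lungs, and its Hopx-null values spread on both sides of the wild-type ones. Hoxb7 lay between 3.11 and 3.49 at its own probe set, below the lower quartile, as did Hoxc6 (3.66 to 4.15) and Hoxc8 (2.14 to 2.64). A probe set that names Hoxb8 and Hoxb7 together, and so stands for no member, had a mean of 4.82. It read 4.87, 4.96 and 5.21 in Hopx-null lungs and 4.80, 4.84 and 4.26 in wild-type lungs, so the groups lay apart. The difference of 0.38 (SE 0.18) did not pass (limma, Benjamini-Hochberg adjusted p = 0.878). This shared probe set was singled out after its values were seen.

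Hoxd8 and Hoxd9, which help pattern the trunk and limbs, varied between lungs of 1 genotype more than between genotypes. Hoxd9 read 8.31, 8.63 and 8.72 in Hopx-null lungs 1 to 3 and 8.14, 8.57 and 8.82 in wild-type lungs 1 to 3. Hoxd8 read 7.12, 7.24 and 7.35 in Hopx-null lungs and 6.76, 7.38 and 7.66 in wild-type lungs, the widest range of any member at 0.89. In both genes wild-type lung 1 was lowest, Hopx-null lung 1 came next and wild-type lung 3 was highest. The differences between genotypes were -0.03 (SE 0.22) for Hoxd8 and 0.04 (SE 0.20) for Hoxd9. Without wild-type lung 1 they were -0.28 and -0.14, and without wild-type lung 3 they were 0.16 and 0.20, so their sign rests on single lungs. With the Y-linked signal as a covariate they were 0.47 and 0.41, a fit in which wild-type lung 1 is the only lung of its genotype without that signal.

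Averaged over members at or above the lower quartile, the clusters did not vary alike. The 6 Hoxa genes deviated from their 6-lung means by 0.16, 0.0026 and 0.04 in Hopx-null lungs 1 to 3 and by -0.12, 0.16 and -0.24 in wild-type lungs 1 to 3. The 3 Hoxd genes deviated by -0.09, 0.07 and 0.0012 in Hopx-null lungs and by -0.27, 0.04 and 0.24 in wild-type lungs. Wild-type lung 3 was thus the lowest lung for the Hoxa mean and the highest for the Hoxd mean. Not every member followed its cluster. Hoxa9 was highest in wild-type lung 3, at 5.61. The Hoxd pattern is that of Hoxd8 and Hoxd9, since Hoxd12 read 4.69 in wild-type lung 3 and 4.75 in wild-type lung 1. The 7 Hoxb genes stayed within -0.11 and 0.14, with wild-type lung 3 lowest as in Hoxa, and the 3 Hoxc genes within -0.15 and 0.16.

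**Figure D4:**
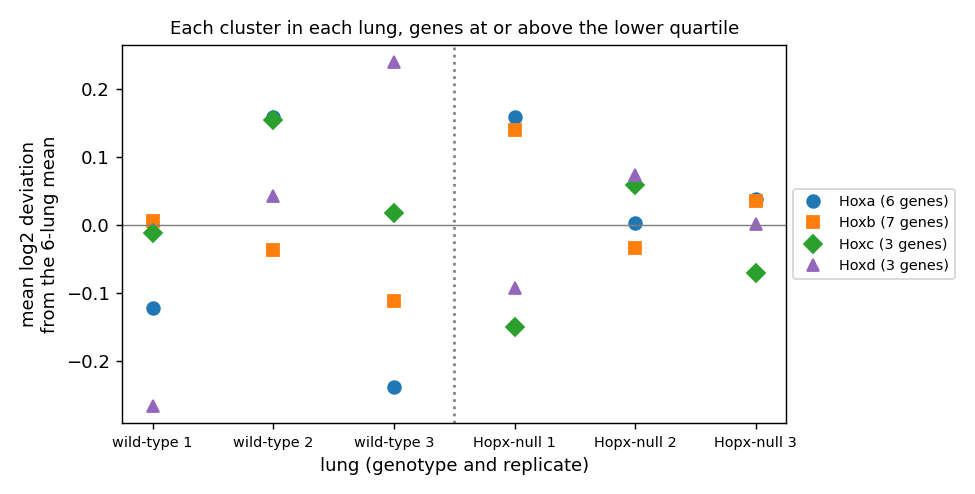
Mean log2 deviation of each cluster's genes from their own 6-lung mean, for each lung, over members at or above the lower quartile (6 Hoxa, 7 Hoxb, 3 Hoxc and 3 Hoxd genes). The wild-type lungs span the range from -0.27 to 0.24 in Hoxd, and in wild-type lung 3 the Hoxa and Hoxd points lie at opposite ends.

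Other tissues, whether part of the lung or carried along in dissection, could hold Hox transcripts of their own. Their markers were read in the same lungs. The mean over 13 of 13 cartilage markers was 5.99, 5.40 and 6.23 in Hopx-null lungs 1 to 3 and 5.35, 7.35 and 7.61 in wild-type lungs 1 to 3, with Matn3 below the lower quartile. Like Hoxd8 and Hoxd9, this mean was highest in wild-type lung 3 and lowest in wild-type lung 1. The order of the other lungs differed. The cartilage mean was lower in Hopx-null lung 2 than in Hopx-null lung 1, where Hoxd8 and Hoxd9 were higher in Hopx-null lung 2. Over 7 of 10 neural and Schwann cell markers the mean was 5.50 to 6.19 in Hopx-null and 5.53 to 6.64 in wild-type lungs, with Nefm below the lower quartile. It too was highest in wild-type lung 3, and it was lowest in Hopx-null lung 2. Over 10 of 10 skeletal muscle markers it was 5.38 to 5.57 and 5.25 to 5.64, with Myog and Myh8 below the lower quartile, and over 7 of 8 liver markers 5.28 to 5.55 and 5.21 to 5.49. Over 8 of 8 cardiac markers it was 10.11 to 10.50 and 9.73 to 10.49. Over 6 of 7 oesophageal and squamous markers it was 5.86 to 6.09 and 5.75 to 6.35. Wild-type lung 1 was also the lowest lung for the skeletal muscle, cardiac, and oesophageal and squamous means. The part of these tissues in the Hox values was not tested.

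Among the genes of high number, signal was low and differences were small. Of the 14 with numbers 9 to 13, 8 were below the lower quartile, and 5 had a higher and 9 a lower mean in Hopx-null lungs, with a median difference of -0.03. The split was 7 and 7 with array weights, where the median was 0.0089, 7 and 7 without wild-type lung 3 (median -0.02), and 4 and 10 without wild-type lung 1 (median -0.07). Hoxc9, which acts in the thoracic skeleton and was the brightest Hoxc gene, read 5.39, 5.85 and 5.58 in Hopx-null lungs and 5.90, 5.96 and 5.71 in wild-type lungs. The groups overlapped at Hopx-null lung 2, and the difference of -0.25 (SE 0.14, 95% interval -0.58 to 0.08) did not pass (limma, Benjamini-Hochberg adjusted p = 0.878). It was -0.14 without Hopx-null lung 1 and -0.37 without Hopx-null lung 2. Hoxc4 read 5.41, 5.29 and 5.49 against 5.14, 5.71 and 5.50. Hoxa11, a forelimb and kidney gene, was the 1 member whose Hopx-null lungs all lay below the wild-type lungs, at 2.59, 2.62 and 2.47 against 2.63, 2.81 and 2.63, but every value is far below the lower quartile and the difference was -0.13 (SE 0.09), or -0.07 without wild-type lung 2. Hoxb1 had the next widest range after Hoxd8 and Hoxa5, at 2.85, 2.57 and 3.35 against 2.87, 2.61 and 2.68, also below it.

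Hoxa9, a gene of blood progenitors and the trunk, gave different answers at its 2 probe sets. At the one with the higher mean it read 5.59, 5.49 and 5.42 in Hopx-null lungs and 5.18, 5.58 and 5.61 in wild-type lungs, a difference of 0.04 (SE 0.14) that was -0.10 without wild-type lung 1. At the other it read 4.59, 4.74 and 5.35 against 4.62, 3.82 and 3.97, a difference of 0.76 (SE 0.27). Wild-type lung 1 reached into the Hopx-null values there, and the difference did not pass (limma, Benjamini-Hochberg adjusted p = 0.878). This probe set was singled out after its values were seen.

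By sign, most of the Hox genes above the median level had the higher mean in Hopx-null lungs. They were read in the same 6 lungs, so the genes are not separate evidence of a shift. Of the 9 members above the median level 8 had the higher mean in Hopx-null lungs, with a median difference of 0.06, and of all genes above that level 6281 of 11438 did, with a median of 0.02. The count ranged from 6 to 8 of 9 over the alternatives, and was 6 without wild-type lung 3. That lung was the lowest of all in Hoxa2 to Hoxa5, Hoxb3 and Hoxb4. The median of these 9 members ranged from 0.056 without Hopx-null lung 1 to 0.18 without wild-type lung 2. It was 0.17 with the Y-linked covariate, 0.12 without Hopx-null lung 3, 0.11 without wild-type lung 1 and 0.10 without Hopx-null lung 2. With array weights it was 0.061, and without wild-type lung 3 it was 0.079. Of the 10 members between the lower quartile and the median, 5 had a higher and 5 a lower mean in Hopx-null lungs. Over all 33 members 18 had the higher mean in Hopx-null lungs, where 52.2% of all genes did. In Hoxa 6 of 9 members and in Hoxb 7 of 9 had the higher mean in Hopx-null lungs, in Hoxc 2 of 7 and in Hoxd 3 of 8. The Hoxa median of 0.04 turned to -0.06 without wild-type lung 3 and to -0.0051 without Hopx-null lung 1.

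Transcripts antisense to the clusters were read at their own probe sets. Hoxb5os, which lies opposite Hoxb5, read 8.70, 8.71 and 8.89 in Hopx-null lungs and 8.26, 8.49 and 8.32 in wild-type lungs. The groups lay apart, and the difference of 0.41 (SE 0.10, 95% interval 0.16 to 0.66) was larger than that of any member at its chosen probe set but did not pass (limma, Benjamini-Hochberg adjusted p = 0.878, exact two-sided permutation p = 0.1). It was chosen after its values were seen. Hoxa11os and Hoxd3os1 were below the lower quartile.

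Hox proteins bind DNA together with TALE homeodomain cofactors of the Pbx, Meis and Pknox families. Of 11 such genes listed, with Tgif1 and Tgif2, 10 were measured, all above the lower quartile. Limma called 0 of them at the adjusted threshold (0.0055% of all genes). It marked 0 at an unadjusted p of 0.05 (2.9% of all genes as higher and 1.64% as lower). Of the 10 cofactor genes, 7 had the higher mean in Hopx-null lungs and 3 the lower, with a median of 0.07. Pknox2 differed most, with Hopx-null lungs at 10.24 ± 0.25 (SD, n = 3) and wild-type lungs at 9.89 ± 0.25 (SD, n = 3), a difference of 0.35 (SE 0.17). Pbx2 had the largest difference in the other direction, -0.06 (SE 0.15).

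A further list held the Cdx genes, the ParaHox genes, the retinoic acid receptors and other developmental genes linked to the clusters, including Evx1 and Evx2, which lie beside them. Of 17 listed, 16 were measured and 8 lay below the lower quartile, Cdx1 and Cdx4 included. Limma called 0 of the 16 at the adjusted threshold (0.0055% of all genes) and marked 1, Evx1, at an unadjusted p of 0.05. Over all genes it marked 2.9% as higher and 1.64% as lower. Egr2, a hindbrain regulator of Hox genes, had the largest difference at 0.64 (SE 0.37), and Gdf11 the largest in the other direction at -0.18 (SE 0.10). Of 21 measured Polycomb subunits, which keep Hox genes silent, 7 had a higher and 14 a lower mean in Hopx-null lungs, with a median of -0.05, from Rnf2 at -0.21 (SE 0.11) to Phf19 at 0.26 (SE 0.11). Of 11 Trithorax and demethylase genes, which keep them active, 6 were higher and 5 lower, from Wdr5 at -0.16 (SE 0.09) to Kdm6a at 0.16 (SE 0.13). Limma called 0 of either list at the adjusted threshold and marked 0 at an unadjusted p of 0.05, beside the shares over all genes given above.

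The genes that flank the clusters were the last group, taken as the 3 nearest measured genes on each side of each cluster in the order of the RefSeq table. Of these 24 genes 16 lay above the median level, against 62.9% of all genes and 9 of the 33 Hox genes between them. Limma called 0 of the 24 at the adjusted threshold (0.0055% of all genes). It marked 1 at an unadjusted p of 0.05 (2.9% of all genes as higher and 1.64% as lower). This was Evx1 beside the Hoxa cluster, with a difference of 0.25 (SE 0.10) at a level below the lower quartile. The differences of the 24 genes ran from -0.21 for Cbx3 to 0.43 for Nfe2l2, with a median of 0.01.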

How the data were processed

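Lungs of 3 Hopx-null and 3 wild-type mouse embryos were read on 1 array each. The deposited values were taken as log2 expression per probe set made by the authors; RMA and Partek 6.6 are named, with no role or order, per the submitters' processing notes, and no header gives the base of the logarithm, for which 2 was assumed from how far the values reach. RMA equalises the arrays, so a shift of most transcripts together would not show. After 64 control probe sets were left out, 45037 were fitted with limma 3.58.1 in R 4.3.3 (lmFit, eBayes, two-sided, no filter), adjusted by Benjamini-Hochberg over all of them with a threshold of 0.05. The fit was tested on simulated data. Genes were named from the 34945 probe sets with 1 annotated gene, not from the 932 with several or the 9160 with none. SDs measure the spread between 3 samples per genotype. Limma's SEs, intervals and p-values use that spread after eBayes draws it toward a variance shared by all probe sets. The number of arrays limits precision.

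Values in every lung were given for the 2 brightest members of each cluster, lung-related numbers 2 to 8, members with groups apart or an unadjusted p under 0.05, the 3 widest ranges, and genes whose probe sets disagree. The members, lists, rules and alternatives were chosen with earlier results of these data known. Alternatives were repeated normalization, a dim filter, another variance model (trend and robust), weights per array, a block for the replicate number, a Y-linked covariate, other probe sets and each lung left out. Lungs with the same replicate number did not deviate together (correlations of -0.12 to 0.18), so the number was not used as a pairing.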

Additional observations from a re-analysis of the deposited data

How the results depend on the processing

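Under the 14 alternative fits limma called 0 of the Hox genes at an adjusted p of 0.05, the replicate block included. At an unadjusted p of 0.05 limma marked 2 with the settings of the report and 0 to 3 under the alternatives. It marked 0 without Hopx-null lung 3 and 1 with the block, where Hoxb2 was no longer marked. The count was 3 without Hopx-null lung 2, without wild-type lung 2, and with the probe set of largest spread for each gene. The median difference of the Hox genes, 0.02, was 0.064 over the 9 genes left by the filter on dim probe sets. It was 0.043 with the Y-linked covariate, and from 0.0048 to 0.036 with 1 lung left out. At the brighter Hopx probe set the change of -1.91 kept its size and direction under the alternatives. It no longer passed with the replicate block (-1.91, limma, Benjamini-Hochberg adjusted p = 0.299) or the Y-linked covariate (-2.01, adjusted p = 0.39). With 1 lung left out the change ranged from -1.99 to -1.84. It did not pass without Hopx-null lung 2 or 3 or wild-type lung 2 or 3. Limma's adjusted p for this probe set ran from 0.00134 to 0.413 over the alternatives, and the cause was not tested. The other Hopx probe set, at -5.94, had an adjusted p of 0.000375 in the limma fit of the report. The block changed no adjusted call among the Hox genes.

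Of the 33 Hox genes 24 changed sign in at least 1 alternative and 9 in none, Hoxa2, Hoxa4, Hoxb2, Hoxb4, Hoxa11 and Hoxc9 among the latter. With array weights Hoxa5 was -0.020 and Hoxd8 0.038, and Hoxa5 was -0.0040 as the mean of its probe sets. With the Y-linked covariate Hoxb5 was -0.046 and Hoxd8 0.47. In the same fit Hoxa4 was 0.26 and Hoxb4 0.066, both smaller than in the report, while Hoxa2 was 0.36 and Hoxa9 0.31, both larger. With 1 lung left out Hoxa5 ranged from -0.12 to 0.29, Hoxa9 from -0.10 to 0.12, Hoxb5 from -0.0057 to 0.12, Hoxd8 from -0.28 to 0.16 and Hoxd9 from -0.14 to 0.20. The cause was not tested. Signal close to background limits what can be read from the 14 genes below the lower quartile.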
